A study of Mus musculus with 6 samples.

Results

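The 10 genes described here encode the muscle transcription factors Myod1, Myog, Myf5 and Myf6, the MEF2 factors Mef2a, Mef2c and Mef2d, and the inhibitors Id1, Id2 and Id3. They were taken by symbol from a table of 27179 mouse genes, and all 10 were found. RNA had been sequenced from cultures of primary muscle satellite cells, isolated from hindlimb muscle of C57BL/6 mice of WT genotype and labelled as ageing, with no age stated. All cultures were kept in medium with 20% fetal bovine serum and bFGF. The treated group received recombinant human MG53 protein (rhMG53) and the control group bovine serum albumin (BSA), each for 72 h (day 3 in the labels), with 3 libraries a group. MG53 is a muscle TRIM protein known for membrane repair, encoded in the mouse by Trim72, and the added protein is the human one. The design text describes the replicates as biological, with no animal or culture named for any of them, so the p-values measure only how far these libraries differ, and some of that may be technical.

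The 4 myogenic regulatory factors are basic helix-loop-helix proteins that bind the E-box sequence CANNTG as dimers with the broadly expressed E proteins. Myf5 and Myod1 are known for committing cells to the muscle lineage, Myog for driving terminal differentiation, and Myf6 (MRF4) for later stages of muscle formation. MEF2 factors are MADS-box proteins that bind an A/T-rich element and cooperate with the myogenic factors on muscle genes. Id proteins have the helix-loop-helix without the DNA-binding basic part, so they capture E proteins in dimers that do not bind DNA, and BMP signalling is their best known inducer.

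The libraries held between 17374151 and 22738745 counts. Markers of differentiated muscle made up 8.78% (BSA) and 8.50% (rhMG53) of the counts, Pax7, which defines satellite cells, stood at 9.24 CPM (counts scaled to a common library size, with TMM factors), and the satellite cell marker Calcr at 0.0523 CPM. The 16 satellite cell markers together made up 0.384% (BSA) and 0.377% (rhMG53) of the counts, mostly through adhesion genes that muscle cells at other stages also express, Itga7 (1729 CPM), Itgb1 (1267 CPM) and Cdh15 (406 CPM). The cultures therefore contained differentiated muscle cells beside any stem cells. Because these are bulk samples, fewer cells of a type and less RNA per cell cannot be told apart. Trim72, the cells' own MG53 gene, had 1380 ± 74.5 CPM in the control libraries and 1411 ± 80.8 CPM in the treated ones (mean ± SD, n = 3).

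The promoters of Myog and Mef2c are printed because these were the members with the highest levels. Each line gives the 250 bases before a RefSeq start site, from RefSeq on GRCm38.p6 (the assembly of mm10), with the E-boxes (CANNTG) and the MEF2 core (TANNNNTA with A or T alone at each N) in capitals. The Myog window is chr1:134289754-134290003 on the plus strand, and the Mef2c window is chr13:83503784-83504033 on the plus strand, the first of 3 Mef2c start sites listed.
Myog: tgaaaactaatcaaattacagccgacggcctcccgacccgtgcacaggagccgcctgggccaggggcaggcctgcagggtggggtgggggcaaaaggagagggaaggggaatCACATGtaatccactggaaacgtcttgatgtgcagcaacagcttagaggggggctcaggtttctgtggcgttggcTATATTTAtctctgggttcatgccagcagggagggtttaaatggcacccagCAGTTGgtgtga
Mef2c: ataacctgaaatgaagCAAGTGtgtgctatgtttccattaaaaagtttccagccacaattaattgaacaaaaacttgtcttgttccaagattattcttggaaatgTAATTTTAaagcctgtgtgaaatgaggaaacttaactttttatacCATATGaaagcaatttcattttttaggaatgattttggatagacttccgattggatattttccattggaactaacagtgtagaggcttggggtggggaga

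The Myog window held the E-boxes CACATG, 138 to 133 bases before the start, and CAGTTG, 12 to 7 bases before it, and the MEF2 core TATATTTA 63 to 56 bases before it. The Mef2c window held the E-boxes CAAGTG and CATATG and the core TAATTTTA. Both motifs were searched on both strands, and no match overlapped another. Of 32851 windows of this length before mouse start sites, 66.2% held an E-box and 8.56% held the MEF2 core. Windows were found for 7 of the 10 members (Myog, Myf5, Mef2a, Mef2c, Mef2d, Id2 and Id3). Among these, Id2 had 1 E-box (CAGCTG), the third Mef2c window had 1 (CAGATG), and those of Myf5, Mef2a, Mef2d and Id3 had neither motif. A match is a string of letters and not shown to be a bound site, and the counts do not tell which start site was used.

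Across the 6 libraries the differentiation factors Myog and Mef2c had the highest levels and the Id genes some of the lowest. Levels of different genes were compared as CPM per kilobase of the longest transcript. Myog had 609 CPM per kilobase (584 to 666 over the libraries), Mef2c 417 (378 to 450) and Myod1 238 (223 to 254), and these 3 ranges did not overlap. Mef2d (59.3, range 54.7 to 61.9) and Mef2a (56.0, range 45.9 to 66.0) overlapped each other, with Mef2d above Mef2a in 4 of 6 libraries. Myf6 followed at 40.0 (36.3 to 44.3). The lowest levels were those of Id1 (7.74, range 6.77 to 8.58), Myf5 (7.36, range 7.11 to 7.67), Id3 (6.63, range 5.66 to 7.72) and Id2 (4.61, range 4.09 to 5.33). Of neighbours in this order, Id1 overlapped Myf5 and Myf5 overlapped Id3, while Id3 was above Id2 in every library. The choice of transcript matters most for Mef2d, whose level was 179 with the median transcript length in place of the longest, still below that of Myod1.

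**Figure D1:**
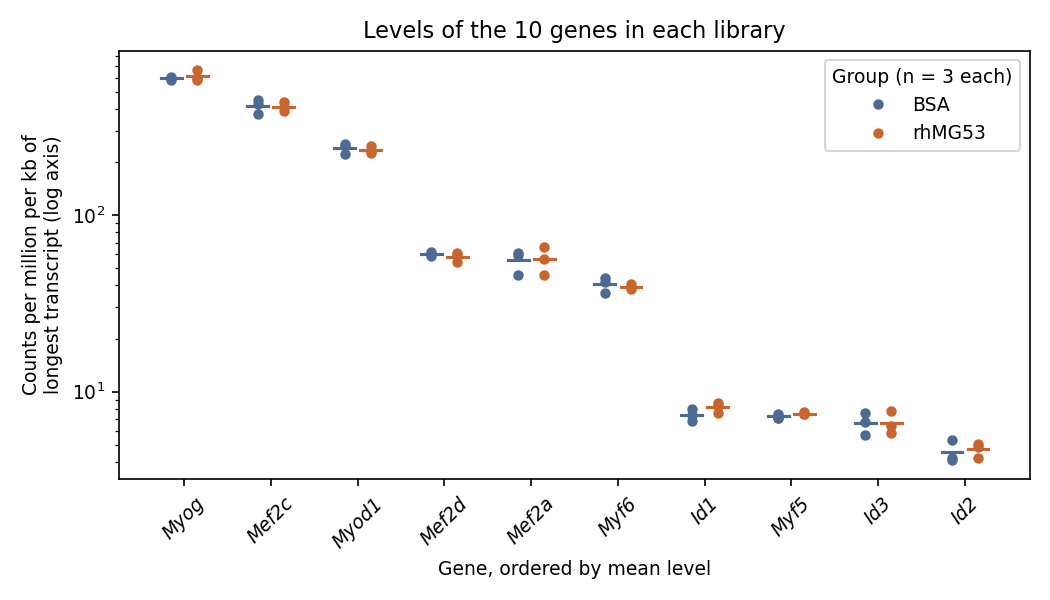
Level of each gene in each library, as CPM per kilobase of the longest transcript on a log axis, with genes ordered by mean level; points are libraries (3 BSA, 3 rhMG53) and bars are group means. Myog, Mef2c and Myod1 lie above 223 in every library, the Id genes and Myf5 lie below 8.58, and the points of the groups overlap for every gene.

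Among the 4 myogenic factors Myog held 67.5 ± 1.05% of the summed level per kilobase with BSA and 68.7 ± 0.456% with rhMG53. Myod1 held 27.1 ± 0.812% and 26.1 ± 0.294%, Myf6 4.60 ± 0.331% and 4.36 ± 0.129%, and Myf5, the early factor, under 0.867% in every library. Mef2c held 77.6% to 79.5% of the MEF2 sum over the libraries. With the median transcript length the share of Mef2c was 62.8% to 65.2%, and that of Mef2d 25.4% to 28.7%. The Id sum was more evenly divided, with Id1 at 36.6% to 43.3%, Id3 at 30.3% to 40.8% and Id2 at 22.6% to 26.6%. Summed per kilobase, the 3 Id genes came to 18.5 ± 1.46 with BSA and 19.5 ± 1.56 with rhMG53, or 0.0190 to 0.0224 times the sum of the myogenic factors over the libraries. The E protein genes Tcf3, Tcf4 and Tcf12, which encode the shared dimer partners, summed to 46.2 ± 0.519 and 47.6 ± 0.848. The Id sum was thus 0.374 to 0.436 times the E protein sum. That ratio depends on the longest transcript being used for each E protein gene, and it was not computed with other lengths. These are ratios of RNA and not of protein.

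The comparison of rhMG53 with BSA asks whether added MG53 changes the expression of these regulators. No member passed the test in either direction, 5 were higher and 5 lower (the sign of 7 turned under at least 1 alternative), and the groups overlapped for all 10. In edgeR's quasi-likelihood test over 13769 genes (all 10 members passed its filter on low counts), 0.0218% of genes had an adjusted p under 0.05, 5.20% an unadjusted p under 0.05 and 10.8% groups that did not overlap, and in each case the count of members was 0. The members' median log2 fold change (rhMG53 over BSA) was 0.0016, beside 0.0014 over all genes. The 95% intervals of all 10 lay within a 1.5-fold change in either direction, the lowest bound being 0.798-fold (Id3) and the highest 1.33-fold (Id1).

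Myod1 (gene ID 17927, on chromosome 7, 46376474 to 46379092 in mm10) was at 416, 458 and 473 CPM in BSA replicates 1 to 3 and at 430, 461 and 420 CPM in rhMG53 replicates 1 to 3. The lowest and the highest library were both BSA libraries, so the treated values lay inside the control range. Its log2 fold change was -0.04 (SE 0.068, 95% interval -0.19 to 0.11). Myog (17928, chromosome 1, 134290004 to 134292548) was at 874, 900.3 and 912 CPM with BSA and at 902, 996 and 877 CPM with rhMG53. Replicate 2 of rhMG53 stood above the other 5 libraries, which lay close together. The log2 fold change of Myog was 0.05 (SE 0.067, interval -0.10 to 0.19), and without that library it was -0.0097. The ratio of Myog to Myod1 per kilobase was 2.62, 2.45 and 2.40 in the BSA libraries and 2.61, 2.69 and 2.60 in the rhMG53 libraries, and these overlapped at BSA replicate 1.

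Myf5 and Myf6 are neighbours on chromosome 10, at 107482908 to 107486927 (gene ID 17877) and 107492848 to 107494723 (17878), both on the minus strand with 5920 bases between them. Myf5 was at 14.8, 14.8 and 15.5 CPM with BSA and at 15.4, 15.97 and 15.5 CPM with rhMG53, from 262 to 335 counts a library. Relative to its level Myf5 had the smallest spread of the 10 genes over the 6 libraries. Within the groups its coefficient of variation was 2.70% with BSA, where Myog (2.20%) and Mef2d (2.60%) were lower, and 1.86% with rhMG53. Both values were below the 5.86% that counting error alone would give. The log2 fold change of Myf5 was 0.06 (SE 0.080, interval -0.12 to 0.23). Myf6 was at 45.8, 56.0 and 53.1 CPM with BSA and at 49.3, 51.2 and 48.0 CPM with rhMG53. As for Myod1, BSA replicate 1 was the lowest of all libraries, and the treated values lay inside the control range (log2 fold change -0.06, SE 0.079, interval -0.23 to 0.12).

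Mef2a (17258, chromosome 7, 67231163 to 67376456) varied most among the abundant members, at 340.2, 332 and 255 CPM with BSA and at 366, 254 and 314 CPM with rhMG53. Replicate 3 of BSA and replicate 2 of rhMG53 were the low libraries, 1 in each group, and the log2 fold change was 0.01 (SE 0.13, interval -0.28 to 0.30). Mef2c (17260, chromosome 13, 83504017 to 83667079), the MEF2 gene most associated with skeletal muscle differentiation, was at 1227, 1289 and 1081 CPM with BSA and at 1258, 1114 and 1186 CPM with rhMG53. It was lowest in the same libraries as Mef2a. Its log2 fold change was -0.02 (SE 0.080, interval -0.19 to 0.16). Mef2d (17261, chromosome 3, 88141941 to 88172091) was at 318, 335 and 325 CPM with BSA and at 330.2, 295 and 320.0 CPM with rhMG53, lowest in rhMG53 replicate 2 (log2 fold change -0.05, SE 0.062, interval -0.18 to 0.09). The end of Mef2d overlaps the long noncoding gene 1700113A16Rik on the opposite strand, which had 349 to 445 counts against at least 5418 for Mef2d, and the strand setting of the counting is not given in the sources used here. Counts summed by gene do not separate the splice forms of MEF2.

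The low libraries for Mef2a and Mef2c were also those in which long transcripts were low as a class. Genes with transcripts of at least 5000 bases (2668 genes) had a median deviation from their 6-library mean of -0.08 log2 units in BSA replicate 3 and -0.14 in rhMG53 replicate 2, against 0.04 to 0.09 in the other 4 libraries. Mef2a, whose longest transcript has 5538 bases, deviated by -0.27 in both. Mef2d, with 5401 bases, deviated by 0.02 in BSA replicate 3 and by -0.12 in rhMG53 replicate 2, and Mef2c, with 2862 bases and so in neither length class, by -0.14 and -0.10. Genes with transcripts under 1500 bases (1710 genes) had a median of 0.12 in rhMG53 replicate 2, the library where Myog, with a transcript of 1495 bases, deviated by 0.13. Of the other members in this class, Myf6 deviated there by 0.02, Id1 by 0.15, Id2 by 0.08 and Id3 by 0.23. Whether transcript length has a part in these values was not tested. Without both libraries, a setting chosen after the data were seen, the log2 fold change was 0.02 (SE 0.070) for Mef2a, -0.04 (SE 0.065) for Mef2c and 0.0037 (SE 0.061) for Myog, and no member passed.

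**Figure D2:**
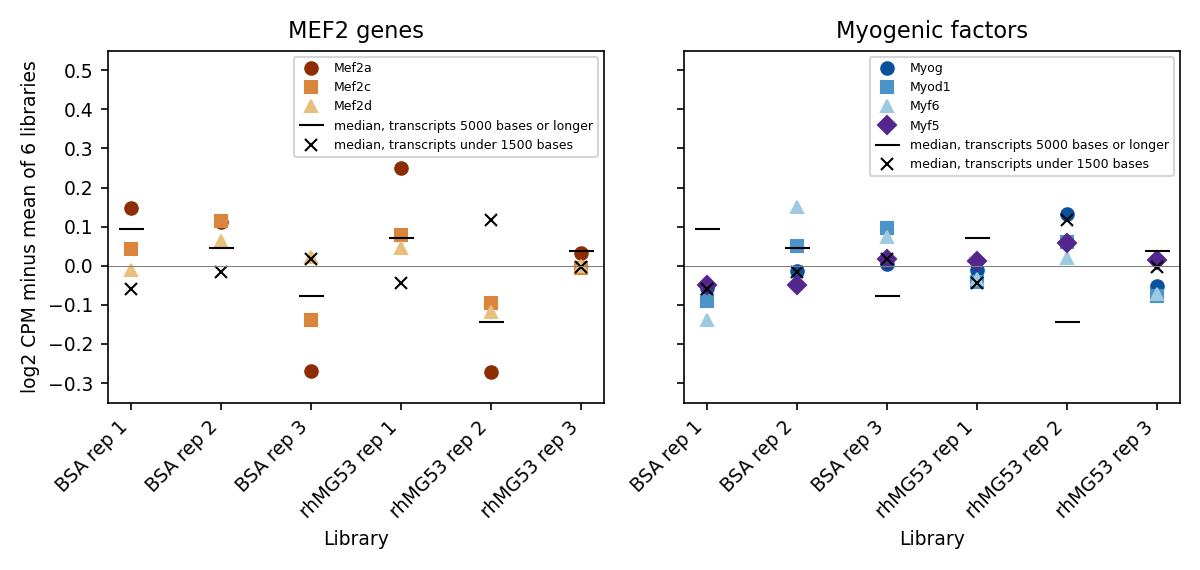
log2 CPM of each gene minus its mean over the 6 libraries, for the MEF2 genes (left) and the myogenic factors (right), by library; black marks are medians over all tested genes with long (at least 5000 bases, dashes) or short (under 1500 bases, crosses) transcripts. Mef2a sits at -0.27 in BSA replicate 3 and rhMG53 replicate 2, where the long transcripts are also at their lowest.

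The Id genes were measured from few counts. Id1 (15901, chromosome 2, 152736251 to 152737410) was at 6.32, 6.84 and 7.42 CPM with BSA and at 7.02, 8.01 and 7.77 CPM with rhMG53, from 121 to 147 counts a library. The treated libraries were higher on average, and rhMG53 replicate 1 lay below BSA replicate 3. Its log2 fold change, 0.15 (SE 0.12, interval -0.12 to 0.42), had the lowest p of the members (unadjusted 0.242, edgeR adjusted p = 0.978). Id2 (15902, chromosome 12, 25093799 to 25096092) was at 5.30, 5.20 and 6.76 CPM with BSA and at 5.30, 6.16 and 6.43 CPM with rhMG53, with its highest value in a control library (log2 fold change 0.05, SE 0.15, interval -0.27 to 0.38). Id3 (15903, chromosome 4, 136143822 to 136145392) was at 9.64, 7.23 and 8.58 CPM with BSA and at 8.13, 9.86 and 7.42 CPM with rhMG53. The groups of Id3 covered nearly the same range, and its log2 fold change was -0.0078 (SE 0.14, interval -0.33 to 0.31). Counting error alone gives these 3 genes a coefficient of variation of 7.86% to 9.51%. The observed values with BSA and rhMG53 were 8.05% and 6.81% for Id1, 15.2% and 9.90% for Id2, and 14.2% and 14.8% for Id3.

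**Figure D3:**
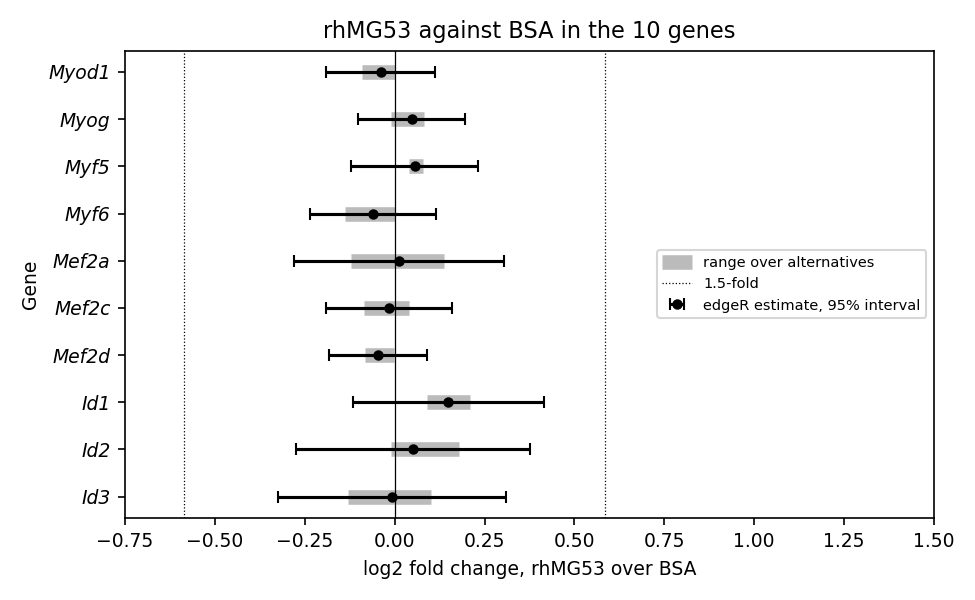
log2 fold change (rhMG53 over BSA) of the 10 genes; points and bars are edgeR estimates with 95% intervals from 3 libraries a group, grey bars span the estimates over the 16 alternative settings, and dotted lines mark a 1.5-fold change. Every interval includes 0 and lies inside the dotted lines, and Id1 has the highest estimate, 0.15.

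The E proteins and the other repressors of myogenic factors had no gene past the threshold in edgeR. The E protein genes Tcf3, Tcf4 and Tcf12 had log2 fold changes of 0.05, 0.05 and 0.03, and Tcf4, the highest per kilobase, had 160 ± 6.76 CPM in the controls and 165 ± 8.97 CPM after treatment. Of 20 tested repressors 10 were higher and 10 lower, with a median of 0.00083. The clock-linked E-box repressor genes Bhlhe40 (0.12, SE 0.071) and Bhlhe41 (0.10, SE 0.063) had the lowest p among those with at least 5 CPM. Id4, the fourth Id gene, went from 0.860 ± 0.0880 to 1.24 ± 0.225 CPM between the group means and was named after its values were seen. Its groups did not overlap, as for 10.8% of all genes, and it did not pass (log2 fold change 0.53, SE 0.26, edgeR adjusted p = 0.965). The list of corepressors, kinases and phosphatases that act on MEF2 also held the NFAT factor genes and Rcan1. Of its 23 tested genes 11 were higher and 12 lower (median -0.00023). Among them were the kinase gene Prkd1 (-0.25, SE 0.12) and the calcineurin subunit gene Ppp3cc (0.23, SE 0.13). Of 31 coactivators and partner factors 15 were higher and 16 lower (median -0.01). Those with the lowest p were Pax7 (-0.25, SE 0.13) and Eya3, which encodes a transcriptional cofactor (-0.11, SE 0.060).

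Of the BMP pathway genes that act upstream of the Id genes, 25 of 35 were higher and 10 lower (median log2 fold change 0.04), and none passed in edgeR. The share of genes higher was 71.4%, beside 50.5% over all tested genes. The groups did not overlap for 5 of the 35 (Bmp6, Smad1, Smad7, Msx2 and Atoh8), against 10.8% of all genes, and all 5 were higher with rhMG53. In edgeR 3 of the 35 (Bmp6, Atoh8 and Smad1) had an unadjusted p under 0.05, against 5.20% of all genes. Smad1, which encodes a transducer of BMP receptors, was at 32.1, 33.4 and 33.6 CPM with BSA and at 36.3, 36.3 and 37.1 CPM with rhMG53. All its treated libraries were above all its controls (log2 fold change 0.15, SE 0.062, edgeR adjusted p = 0.9497). The feedback inhibitor gene Smad7 was at 10.2, 8.76 and 10.9 CPM with BSA and at 11.2, 13.3 and 11.1 CPM with rhMG53 (0.25, SE 0.12). The ligand gene Bmp6 (0.74, SE 0.25) was at 1.24 ± 0.308 and 2.08 ± 0.371 CPM, the homeobox gene Msx2 (0.39, SE 0.19) at 1.78 ± 0.230 and 2.31 ± 0.141 CPM, and the bHLH gene Atoh8 (0.55, SE 0.23) at 1.81 ± 0.449 and 2.65 ± 0.440 CPM. These 3 low genes were named after their values were seen. Smad5, the close relative of Smad1, had a log2 fold change of -0.03 (SE 0.076), and the receptor gene Bmpr1a one of -0.05 (SE 0.083).

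Genes that the myogenic factors and MEF2 are known to activate were all high enough to test in these cultures and made up 10.4% (BSA) and 10.3% (rhMG53) of the counts. Of 50 members 20 were higher and 30 lower (median log2 fold change -0.0100), and none passed in edgeR or had an unadjusted p under 0.05. Muscle creatine kinase, Ckm, was at 477 ± 40.6 and 476 ± 42.6 CPM, skeletal actin, Acta1, at 12515 ± 1052 and 12421 ± 767 CPM, and the fusion gene Mymk at 1295 ± 17.8 and 1298 ± 34.3 CPM. The groups did not overlap for 5 of the 50, again beside 10.8% of all genes. Among these were 3 subunits of the acetylcholine receptor, Chrnb1, Chrnd and Chrng, each with a log2 fold change of -0.11 (SE 0.062, 0.057 and 0.059), Chrnb1 being named after its values were seen. The other 2, also named after their values were seen, were the integrin gene Itga7 (-0.10, SE 0.067) and, in the opposite direction, the sarcomere protein stabiliser gene Klhl40 (0.08, SE 0.055). Chrng, the fetal subunit, was at 714, 713 and 745 CPM with BSA and at 655, 694 and 658 CPM with rhMG53. Chrna1, the receptor subunit gene with the highest level per kilobase, had a log2 fold change of -0.04 (SE 0.067), with groups that overlapped.

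**Figure D4:**
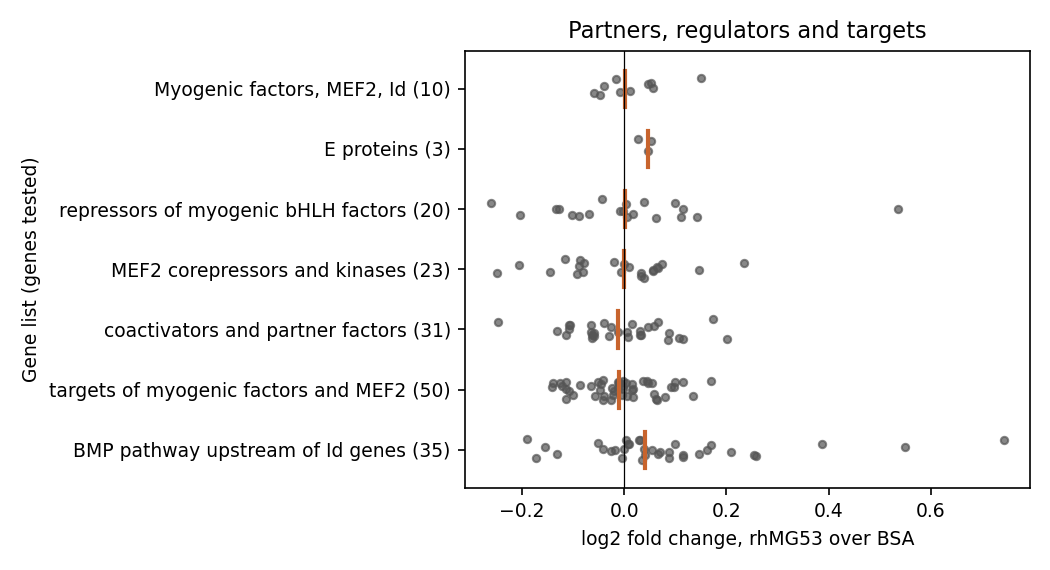
log2 fold change (rhMG53 over BSA) of every tested gene in the 10-gene set and in 6 lists of partners, regulators and targets; points are genes with a random vertical offset and orange bars are list medians. The medians lie between -0.01 and 0.05, and the highest point among the BMP pathway genes is Bmp6 at 0.74.

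Other cell types also express Id genes, so their markers are given beside the Id values. Endothelial markers summed to 4.97 to 5.33 CPM with BSA and 3.88 to 5.35 CPM with rhMG53, with 2 of 10 high enough to test. The highest of them was Egfl7 at 2.63 CPM, and Pecam1 was at 0.0875 CPM. Macrophage and leukocyte markers summed to 6.87 to 8.22 and 7.42 to 11.9 CPM (4 of 10 tested). The highest of these was Itgam at 4.85 CPM, with Cd52 at 0 and Ptprc at 0.0600 CPM. Schwann and glial markers summed to 4.002 to 5.75 and 4.66 to 5.60 CPM (4 of 8 tested). Fibroblast and fibro-adipogenic markers summed to 424 to 472 and 424 to 482 CPM (9 of 12 tested), of which Gsn, also a muscle gene, made up 331 CPM, Pdgfra 21.9 CPM and Tcf21 0. Of the 9 tested, 7 were higher and 2 lower (median log2 fold change 0.15). With single libraries left out this median ranged from 0.03 (without rhMG53 replicate 3) to 0.24 (without BSA replicate 1). Those of lowest p with at least 5 CPM were the matrix genes Dcn (0.19, SE 0.090, groups that did not overlap) and Smoc2 (0.15, SE 0.10). Smooth muscle and pericyte markers summed to 473 to 505 and 458 to 495 CPM (6 of 10 tested). Most of the sum came from Smtn (182 CPM), Abcc9 (127 CPM) and Pdgfrb (83.6 CPM), while Rgs5 was at 0.0884 CPM and Kcnj8 at 0. Of the 6 tested, 2 were higher and 4 lower, with Mcam at -0.20 (SE 0.098) and Cspg4 at 0.15 (SE 0.082). No marker of these lists passed in edgeR, and the part of such cells in the Id values was not tested. Proliferation markers summed to 49.99 to 54.2 and 50.1 to 52.3 CPM, with Mki67 at 1.09 CPM and most of the sum from Pcna (27.8 CPM) and Mcm2 (13.9 CPM). Of the 7 tested, 1 was higher, Pcna (0.06, SE 0.066), and 6 were lower, among them Mcm2 (-0.07, SE 0.10). Their median log2 fold change was -0.30, the value of Top2a at 1.75 CPM, and none passed in edgeR. With genes filtered at a mean of at least 5 CPM the median of these markers was -0.01. Without rhMG53 replicate 2 it was -0.09.

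Likeness of pattern over the 6 libraries was measured by Pearson's r of log2 CPM against genes with at least 20 CPM, as a description. The 2 genes most like Myog were Raly (r = 0.994) and Pdcd5 (r = 0.994), and those most like Myod1 were Cpsf3 (r = 0.983) and Grk2 (r = 0.977). Myf5 was most like Mtdh (r = 0.993) and Hnrnpa0 (r = 0.990), and Myf6 most like Syt12 (r = 0.964) and Trabd (r = 0.964). Mef2a was most like Rictor (r = 0.994) and Ap2b1 (r = 0.993), and 206 of 6614 genes reached an r of 0.95 with it, the most of any member. Mef2c was most like Stk4 (r = 0.992) and AU022252 (r = 0.991), and Mef2d most like Rab27b (r = 0.984) and Tbccd1 (r = 0.975). The genes most like Id1 were Lypla2 (r = 0.994) and Siah2 (r = 0.992), those most like Id2 were Ano8 (r = 0.998) and Pnpla2 (r = 0.995), and those most like Id3 were Slc20a1 (r = 0.997) and Tmem199 (r = 0.978). For each member these were the highest values among the genes with a symbol, and the points of a library share its depth and its balance of long and short transcripts. Among the members, Mef2a and Mef2c had an r of 0.927.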

How the data were processed

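Poly(A)-selected RNA libraries were made with a directional kit, per the labels' protocols. The authors deposited a table of raw counts, whole numbers by NCBI gene ID, with a column for each library. Per the submitters' processing notes the build was mm10 and the tools STAR, featureCounts and edgeR, without versions. Annotation, strand setting and the handling of multi-mapped reads were not given in the sources used here. Symbols came from RefSeq (GRCm38.p6, 25275 IDs) and GENCODE M21 (18 more), and 1886 IDs stayed unnamed but in the tests. Transcript lengths were those of GENCODE M21 transcripts linked to RefSeq NM records, and 91.5% of tested genes had one.

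Genes were kept by filterByExpr (minimum count 10, minimum total 15), scaled by TMM and tested with edgeR 4.0.16 (R 4.3.3) quasi-likelihood, 2-sided, with treatment as the only term and Benjamini-Hochberg adjustment over 13769 genes, threshold 0.05. The SE is the log2 fold change divided by the square root of F. CPM used TMM-scaled library sizes, except for list sums and markers given without SD, which used plain totals. log2 CPM had a prior count of 2. No library was a duplicate of another (chi-square per degree of freedom of 4.05 or more in every pair). The fit was tested on simulated data.

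The members and the gene lists were chosen with earlier results of these data known. Named genes were the 10 members, Trim72, the 2 genes of lowest p with at least 5 CPM in each list, and the 2 genes most like each member; other genes illustrate a list or are said to have been named after their values were seen. Protein sequences were not used here. Alternatives were other scaling factors, filters, DESeq2 1.42.0, limma 3.58.1 voom, robust moderation, a replicate term and leaving out libraries.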

Additional observations from a re-analysis of the deposited data

How the results depend on the processing

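No member passed the threshold under any of the 16 alternatives, and the number of listed genes that passed was 0 in each. Directions close to 0 were not stable. With single libraries left out, the log2 fold change ranged from -0.090 to 0.00030 for Myod1, -0.0097 to 0.082 for Myog, -0.14 to 0.0023 for Myf6, -0.12 to 0.14 for Mef2a, -0.085 to 0.040 for Mef2c, -0.011 to 0.18 for Id2 and -0.13 to 0.10 for Id3, each with a change of sign. Myf5 (0.04 to 0.08), Id1 (0.09 to 0.21) and Mef2d (-0.08 to -0.0028) kept their sign. Id3 was at 0.0076 with library size scaling alone. The count of all genes that passed, 3 in the fit reported here, was 6 without the filter, 5 in DESeq2, 0 with the replicate number as a block, 10 without BSA replicate 3 and rhMG53 replicate 2 together, and 0 (without BSA replicate 2) to 4 with single libraries left out. Correlations of same-numbered deviations were 0.19, -0.13 and -0.15 for replicates 1 to 3. Chi-square per degree of freedom was 4.05, 13.6 and 18.7 for these pairs, the first being the lowest of all pairs. With 3 libraries a group, such values cannot tell whether same-numbered libraries were paired. Under the block 0 members passed. With the median transcript length, Mef2a was at 65.2 and Mef2d at 179 CPM per kilobase. The causes of these shifts were not tested. The Id genes had the lowest counts of the members, 92 to 218 a library. Their SEs were 0.12 to 0.15, beside 0.13 for Mef2a with at least 4632 counts a library.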

Other observations

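In the marker lists of the muscle lineage, 1 of 15 tested satellite cell markers and 1 of 20 markers of differentiated muscle had an unadjusted p under 0.05, shares near the 5.20% of all genes, and neither gene passed. Fgfr4, a growth factor receptor gene of myoblasts, had group means of 15.3 ± 3.21 CPM (BSA) and 11.1 ± 1.76 CPM (rhMG53; log2 fold change -0.47, SE 0.16, edgeR adjusted p = 0.935), with groups that did not overlap, as for 10.8% of all genes. Myh2, the fast type IIa myosin heavy chain gene, was at 635 ± 133 CPM and 456 ± 90.9 CPM (-0.48, SE 0.15, edgeR adjusted p = 0.935), with groups that overlapped. Of the satellite cell markers 8 were higher and 7 lower (median 0.01), with Cav1 at 0.16 (SE 0.080). The groups did not overlap for 3 of the 15 satellite cell markers, Fgfr4 and Itga7 (both lower) and Cav1 (higher), beside 10.8% of all genes. For the 20 markers of differentiated muscle this number was 0. Of the markers of differentiated muscle 6 were higher and 14 lower (median -0.01), with the fusion gene Mymx at 0.14 (SE 0.085).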
